A study of Mus musculus with 12 samples.

Results

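The 8 genes described here, Snap25, Stx1a, Vamp2, Syt1, Cplx1, Napa, Napb and Nsf, encode presynaptic SNARE proteins, the calcium sensor and the clamp that act on them, and the factors that recycle them. They were taken by gene symbol from the 24346 genes in the deposited tables, a choice made with earlier results of these data known. All 8 passed the filter on low counts, which left 17380 genes for testing. The RNA came from the midbrain of C57BL/6 mice and was sequenced as 12 libraries, 3 in each of 4 groups: saline at 7 weeks, saline at 12 weeks, synuclein at 7 weeks and synuclein at 12 weeks. Mice of the synuclein groups were injected into the nigra on both sides with 20 µg of preformed fibrils of α-synuclein carrying the G51D substitution, at 5 µg/µL, and mice of the saline groups with saline alone. The weeks count from that injection to collection, so time after injection and age of the animal cannot be told apart. In every group the tissue was microdissected and cells positive for hKO1, a fluorescent protein that the labels tie to dopaminergic neurons, were sorted. The labels name the cell type neural cells and give no promoter for hKO1, no age, and no number of animals behind a library. The p-values below therefore measure the spread between libraries, which may be technical.

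Neurotransmitter release needs a vesicle SNARE, Vamp2 (synaptobrevin 2), to zip together with the plasma membrane SNAREs Stx1a (syntaxin 1A) and Snap25 into a helical bundle that pulls the vesicle against the membrane. Syt1 (synaptotagmin 1) senses calcium and triggers fusion, and Cplx1 (complexin 1) binds the partly zipped bundle and holds it ready. After fusion the ATPase Nsf, bound through the adaptors Napa (α-SNAP) and Napb (β-SNAP), pulls the spent bundle apart so that its parts can be used again. Napa, Nsf and related SNAREs also serve membrane traffic in cells other than neurons, whereas Napb is known as the brain form of the adaptor.

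The libraries held 2506730 to 5533324 assigned fragments. Replicates 1 and 2 of synuclein at 12 weeks stood apart from the others on the first principal components, and replicate 2 had 17409 genes with a fragment against 19960 to 21135 elsewhere. Checked against the label, the dopaminergic markers Th (160.5 to 857.6 CPM) and Slc6a3 (91.68 to 637.8 CPM) were present in every library. Of the 16 dopaminergic genes listed, only Foxa2 and Lmx1b lacked fragments in some libraries, 4 each. Pitx3 and En1 fell to 0.823 and 0.574 CPM in their lowest library. Markers of other cells were present as well. CPM here is the count of a gene per fixed total, after scaling the libraries by the trimmed mean of M values (TMM). Summed over 18 neuronal genes that take no part in release, the level was 1302 to 3940 CPM at 7 weeks and 953.4 to 1248 CPM at 12 weeks, so the 2 times did not overlap. Summed over 12 oligodendrocyte genes it was 18770 to 29490 CPM at 7 weeks and 29040 to 52190 CPM at 12 weeks. Over 10 endothelial genes it was 12130 to 22840 CPM at 7 weeks and 9357 to 16510 CPM at 12 weeks. In such mixed material, fewer neurons and less RNA per neuron cannot be told apart.

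Per length, Snap25 was the most abundant of the 8 transcripts and Stx1a the least. Levels between genes are given as FPKM, fragment counts set to one transcript length and one library total, as means ± SD over the 12 libraries. Snap25 stood at 197.8 ± 113.2 FPKM, Napa at 140.4 ± 16.2, Cplx1 at 120.9 ± 92.4 and Vamp2 at 99.8 ± 31.7. Neighbours among these 4 did not separate over the 12 libraries: Snap25 was above Napa in 8, Napa above Cplx1 in 7, and Cplx1 above Vamp2 in 6. Vamp2 was above Nsf (42.7 ± 15.8 FPKM) in all 12. Syt1 followed at 26.5 ± 14.2 FPKM, Napb at 21.4 ± 12.2 and Stx1a at 11.7 ± 3.5, each above the next in 10 libraries. The order differed between the times. At 7 weeks Snap25 led with 283.8 ± 95.6 FPKM, followed by Cplx1 at 178.2 ± 102.0 and Napa at 138.7 ± 17.8 (SD, n = 6). At 12 weeks Napa came first with 142.2 ± 16.0 FPKM, followed by Snap25 at 111.9 ± 36.7, while Cplx1 stood below Vamp2 at 63.6 ± 22.3 (SD, n = 6). Snap25 was above Cplx1 in 6 of 6 libraries at 7 weeks, and Napa above Snap25 in 4 of 6 at 12 weeks. The fragments behind one value ran from 26, for Stx1a in replicate 1 of saline at 12 weeks, to 2804, for Snap25 in replicate 1 of synuclein at 7 weeks.

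**Figure D1:**
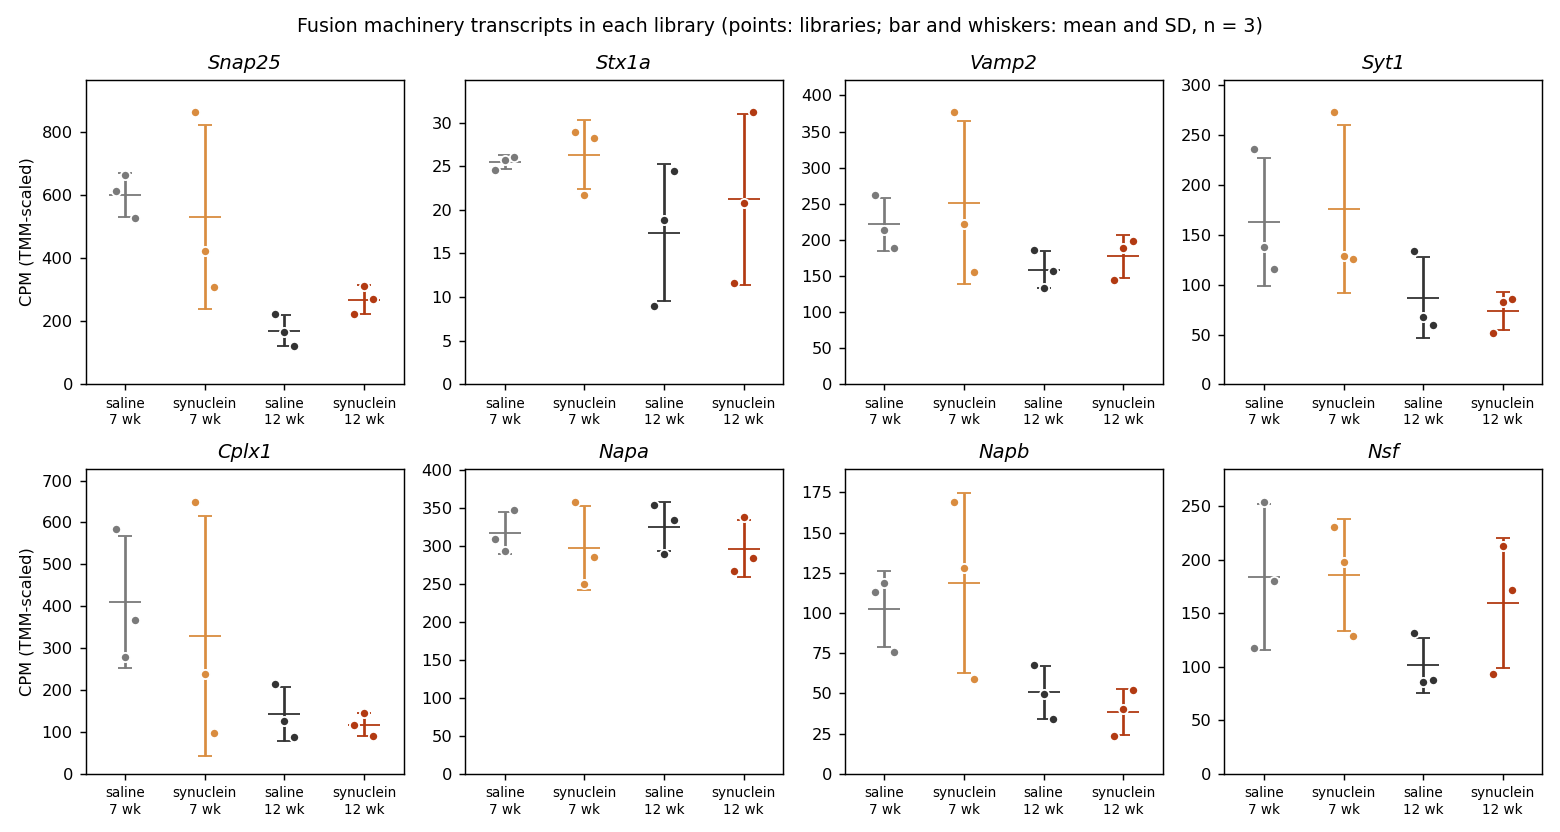
Level of each of the 8 genes in every library, in TMM-scaled CPM on a linear axis from 0, by treatment and weeks after injection (points, libraries; bar and whiskers, mean and SD, n = 3). Snap25 lies between 309.1 and 861.1 CPM at 7 weeks and between 122.9 and 312.4 CPM at 12 weeks, while Napa lies between 250.1 and 358.1 CPM in all 12 libraries.

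The comparison of 12 with 7 weeks, taken over both treatments, was the one in which members passed the threshold in the main edgeR fit. Snap25, Napb and Cplx1 fell to between 35.3% and 40.1% of their level at 7 weeks. Syt1, Nsf, Vamp2 and Stx1a had lower estimates that did not pass the threshold, an adjusted p of 0.05 over all 17380 genes (edgeR quasi-likelihood test, Benjamini-Hochberg), and Napa had an estimate near 0. The 3 members called, all lower, compare with 51 of 17380 genes called lower (0.293%) and 145 called in either direction (0.834%). Without any one of 7 of the 12 libraries, Snap25 was the 1 member called, among 24 to 38 genes, 5 to 13 of them lower. These were replicates 2 and 3 of saline and 1 and 2 of synuclein at 7 weeks, and replicates 1 and 3 of saline and 1 of synuclein at 12 weeks. The median log2 fold change of the 8 members was −0.81, against −0.03 for all genes tested, of which 53.0% were lower. For no member were all 6 libraries at 7 weeks apart from all 6 at 12 weeks, a pattern that 0.944% of genes showed in either direction and 0.386% with lower values at 12 weeks.

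Of the plasma membrane SNAREs, Snap25 (chromosome 2, 136713450 to 136782428 in mm10, plus strand) had the smallest p. Its level was 611.3, 663.1 and 526.6 CPM in replicates 1 to 3 of saline at 7 weeks, and 861.1, 422.7 and 309.1 CPM after synuclein. At 12 weeks it was 221.9, 165.6 and 122.9 CPM after saline and 221.7, 312.4 and 271.5 CPM after synuclein. The times thus overlapped by a single pair of libraries, replicate 3 of synuclein at 7 weeks being just below replicate 2 of synuclein at 12 weeks. The log2 fold change was −1.40 ± 0.23 (SE; 95% interval −1.88 to −0.92; edgeR adjusted p = 0.016), the sixth smallest p of all genes, and it passed the threshold with any one library left out. It ended as a call, at −1.40 (adjusted p = 0.126), when both synuclein libraries that stood apart were left out, a setting under which no gene of the series was called by edgeR and 1414 had an unadjusted p below 0.05. It also missed the threshold on log2 FPKM (limma adjusted p = 0.0562 with a pseudocount of 1, and 0.0761 with 0.1).

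Stx1a, the other plasma membrane SNARE (chromosome 5, 135023572 to 135051099, plus strand), was the least abundant and behaved differently. Its level was 24.6, 25.7 and 26.1 CPM after saline at 7 weeks, a narrow range, and 28.9, 21.8 and 28.3 CPM after synuclein. At 12 weeks the values spread widely, with 8.99, 18.8 and 24.4 CPM after saline and 11.6, 20.8 and 31.2 CPM after synuclein. The highest and the lowest of the 12 values were both at 12 weeks. The log2 fold change was −0.43 ± 0.32 (95% interval −1.10 to 0.24; edgeR adjusted p = 0.78), and the lowest libraries rest on 26 and 40 fragments.

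Vamp2, the SNARE of the synaptic vesicle (chromosome 11, 69088528 to 69092381, plus strand), held 261.6, 213.2 and 189.4 CPM after saline and 376.6, 222.7 and 155.7 CPM after synuclein at 7 weeks. At 12 weeks it held 185.9, 133.6 and 157.4 CPM after saline and 143.9, 188.9 and 199.2 CPM after synuclein. The 3 saline libraries at 12 weeks were all below those at 7 weeks, whereas the synuclein libraries overlapped. The fold change over both treatments was −0.49 ± 0.20 on the log2 scale (95% interval −0.91 to −0.07; edgeR adjusted p = 0.389).

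The calcium sensor Syt1 (chromosome 10, 108497650 to 109010975, minus strand) came closest to the threshold without passing it. At 7 weeks it stood at 236.1, 137.9 and 115.7 CPM after saline and at 272.8, 128.5 and 125.4 CPM after synuclein. At 12 weeks it stood at 133.7, 67.5 and 60.0 CPM after saline and at 51.9, 82.6 and 85.9 CPM after synuclein. In the synuclein groups every library at 12 weeks was below every library at 7 weeks, and in the saline groups replicate 1 at 12 weeks lay inside the earlier range. The difference was −1.08 ± 0.26 on the log2 scale (95% interval −1.64 to −0.53; edgeR adjusted p = 0.0662), and 3 of 25 alternatives, among them DESeq2 (adjusted p = 0.00745), called it. The deposited locus of Gm5136 overlaps that of Syt1, and how fragments there were assigned was not tested.

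The clamp Cplx1 (chromosome 5, 108518554 to 108550027, minus strand) had the largest fall and the widest spread. After saline it was at 584.4, 278.3 and 365.9 CPM at 7 weeks and at 214.0, 126.5 and 87.3 CPM at 12 weeks. After synuclein it was at 649.4, 238.7 and 96.9 CPM at 7 weeks and at 116.8, 145.6 and 90.1 CPM at 12 weeks. Replicate 3 of synuclein at 7 weeks thus lay among the later libraries, while replicate 1 of that group was the highest of all. The log2 fold change was −1.50 ± 0.35 (95% interval −2.23 to −0.77; edgeR adjusted p = 0.0483). That call hung on the threshold: it was lost with any one library left out other than replicate 3 of synuclein at 7 weeks and replicate 2 of synuclein at 12 weeks (adjusted p = 0.0648 to 0.15), and the fold change was −1.01 once replicate 1 of synuclein at 7 weeks was dropped. It was also lost without both libraries that stood apart (−1.70, adjusted p = 0.215).

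The recycling factors split. Napb (chromosome 2, 148694657 to 148732420, minus strand) was at 113.1, 118.8 and 75.5 CPM after saline and at 169.2, 127.9 and 58.9 CPM after synuclein at 7 weeks. At 12 weeks it was at 67.6, 49.9 and 34.2 CPM after saline and at 23.7, 40.04 and 52.1 CPM after synuclein. Within each treatment all libraries at 12 weeks were below all those at 7 weeks. The log2 fold change was −1.32 ± 0.27 (95% interval −1.88 to −0.76; edgeR adjusted p = 0.031). The call was lost without replicate 2 or 3 of saline at 7 weeks (adjusted p = 0.0891 and 0.0572), replicate 1 or 2 of synuclein at 7 weeks (0.0944 and 0.0708), replicate 1 or 3 of saline at 12 weeks (0.0502 and 0.101), or replicate 1 of synuclein at 12 weeks (0.0723), and the fold change then ran from −1.41 to −1.13. Without both libraries that stood apart it was −1.11 (adjusted p = 0.28).

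Napa (chromosome 7, 16098643 to 16117975, plus strand), the adaptor made in most cell types, was the steadiest member. Its level was 309.1, 293.6 and 347.0 CPM after saline and 358.1, 250.1 and 284.8 CPM after synuclein at 7 weeks. At 12 weeks it was 353.2, 289.5 and 333.7 CPM after saline and 266.9, 338.4 and 283.9 CPM after synuclein. All 4 groups overlapped, and the log2 fold change was 0.02 ± 0.15 with a 95% interval of −0.30 to 0.34 (edgeR adjusted p = 0.993).

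The ATPase Nsf (chromosome 11, 103821783 to 103954056, minus strand) lay between Napb and Napa. After saline it was at 117.9, 254.1 and 180.2 CPM at 7 weeks and at 131.1, 85.8 and 87.6 CPM at 12 weeks. After synuclein it was at 230.5, 197.5 and 128.6 CPM at 7 weeks and at 93.1, 212.5 and 172.0 CPM at 12 weeks. The times overlapped in both treatments, and the log2 fold change was −0.54 ± 0.23 (95% interval −1.03 to −0.05; edgeR adjusted p = 0.429).

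The 2 adaptors are close relatives on different chromosomes, so the sequences that could blur their counts were read from the mm10 genome with GENCODE coding exons. Over 885 aligned coding bases Napa and Napb were 76.3% identical. The longest stretch they shared without a mismatch was 26 bases, printed below. It lies at chr7:16107605-16107630 on the plus strand for Napa and at chr2:148712677-148712702 on the minus strand for Napb. Bases outside the coding exons were not compared, and how fragments were assigned between the adaptors was not tested.

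Napa and Napb, shared coding bases: atgttcaagatggccaagaactggag

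The longest runs that Snap25, Vamp2 and Cplx1 shared with a close relative were 13 bases (Snap25 and Snap23) to 32 bases (Cplx1 and Cplx2). The promoters of 6 members were in the RefSeq table for GRCm38.p6, and the 250 bases before the start are printed for Cplx1 and Napb, which fell together, and for Napa, whose estimate was near 0. On both strands 4 letter patterns were searched, the E-box CACGTG, the GC box GGGCGG, the CRE TGACGTCA and the TATA box TATAAA, and matches are in capitals.

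Cplx1, chr5:108550028-108550277, minus strand: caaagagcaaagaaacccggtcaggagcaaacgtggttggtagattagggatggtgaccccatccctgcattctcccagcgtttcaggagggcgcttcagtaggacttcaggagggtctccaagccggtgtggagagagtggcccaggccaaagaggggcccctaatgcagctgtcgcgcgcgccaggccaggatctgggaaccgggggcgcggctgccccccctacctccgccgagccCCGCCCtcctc

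Napb, chr2:148732421-148732670, minus strand: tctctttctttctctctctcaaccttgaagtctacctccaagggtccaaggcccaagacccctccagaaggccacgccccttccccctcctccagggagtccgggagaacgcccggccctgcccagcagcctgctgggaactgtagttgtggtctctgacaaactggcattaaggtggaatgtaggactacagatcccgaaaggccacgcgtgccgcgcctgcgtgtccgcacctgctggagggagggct

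Napa, chr7:16098330-16098579, plus strand: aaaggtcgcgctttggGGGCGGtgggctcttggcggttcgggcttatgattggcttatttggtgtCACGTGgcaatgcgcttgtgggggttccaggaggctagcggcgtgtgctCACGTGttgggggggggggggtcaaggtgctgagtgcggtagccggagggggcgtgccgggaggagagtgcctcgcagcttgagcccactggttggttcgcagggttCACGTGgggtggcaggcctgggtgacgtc

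The Napa window held 3 E-boxes and 1 GC box, the Cplx1 window 1 GC box (on the other strand), and the Napb window none of these patterns. Of 32851 promoters of the same length in the table, 6.02% held an E-box, 32.7% a GC box, 1.55% a CRE and 12.4% a TATA box. Of the other members with a promoter in the table, Nsf had 1 E-box, and Stx1a and the first start of Syt1 had 1 GC box each. A match describes the letters alone.

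Members were then set against a relative within the same library, a ratio that library scaling does not move. The 5 pairs were formed after the members' values had been seen, so the p-values of the ratios are no independent support. With the estimate of Napa near 0, the Napb to Napa ratio largely restates that of Napb. Such ratios can still move with the cell mixture, which was not tested. The Napb to Napa ratio in FPKM was 0.223, 0.247 and 0.133 after saline and 0.288, 0.311 and 0.126 after synuclein at 7 weeks. At 12 weeks it was 0.116, 0.105 and 0.0623 after saline and 0.0544, 0.0722 and 0.112 after synuclein. All 6 later libraries lay below all 6 earlier ones. The log2 ratio was −2.26 ± 0.56 at 7 weeks and −3.59 ± 0.47 at 12 weeks (SD, n = 6), a difference of −1.32 (exact permutation test within treatments, two-sided p = 0.005, the smallest that its 400 regroupings allow; 0.025 after Benjamini-Hochberg adjustment over the 5 pairs). Snap23 is a close relative of Snap25 that is also made outside neurons. The Snap25 to Snap23 ratio was 6.26 to 22.9 at 7 weeks and 2.16 to 7.00 at 12 weeks, overlapping, with a log2 difference of −1.24 (exact permutation p = 0.01, adjusted 0.025). Without both synuclein libraries that stood apart that difference was −0.99 (exact permutation p = 0.125), while that of Napb to Napa was −1.05 (p = 0.0125). The differences were smaller for Vamp2 to Vamp3 (−0.44, exact permutation p = 0.27) and Cplx1 to Cplx2 (−0.39, p = 0.31), both with an adjusted p of 0.31.

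**Figure D2:**
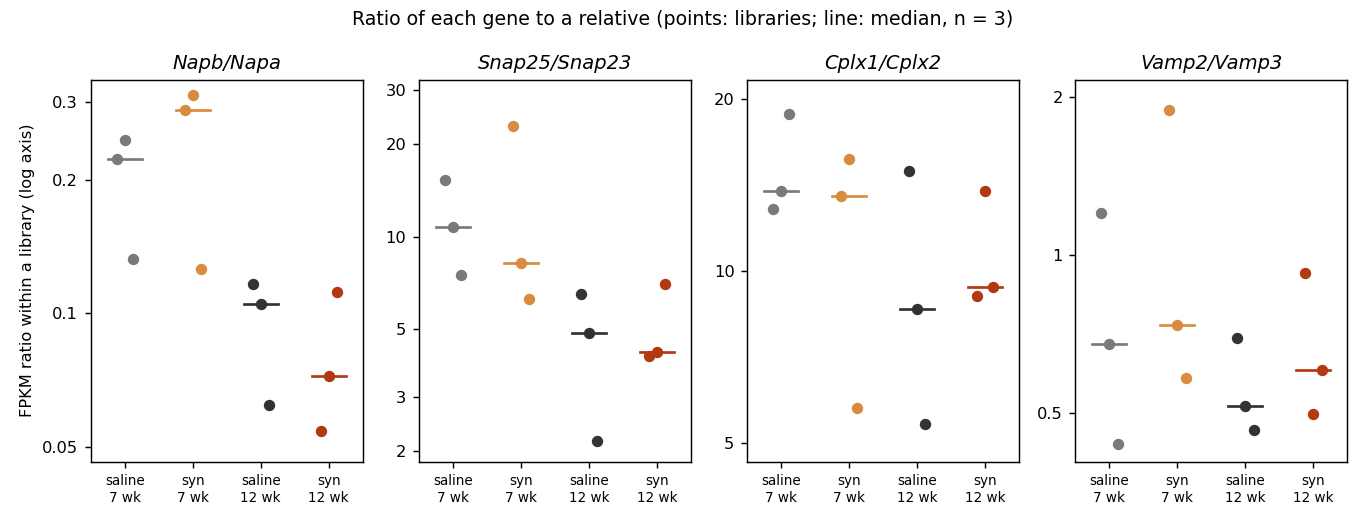
FPKM of a member divided by that of a relative in the same library, on a log axis, by treatment and weeks after injection (points, libraries; line, median, n = 3). The Napb to Napa ratio is 0.126 to 0.311 in the 6 libraries at 7 weeks and 0.0544 to 0.116 in the 6 at 12 weeks, with no overlap.

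Taken within one treatment, with 3 libraries a time, no member and no other gene passed the threshold in edgeR. After saline, 0 of 17380 genes were called by edgeR (0%), 1289 had an unadjusted p below 0.05, DESeq2 called 173 and limma-voom 0. Snap25 had the largest estimate, −1.82 ± 0.33 on the log2 scale (95% interval −2.50 to −1.14; adjusted p = 0.0886), and 6 of 26 alternatives called it. Among these were DESeq2 (adjusted p = 4.96e-05), a fit of the groups compared alone (0.0309), a fit without the filter on low counts (0.0364), and edgeR without replicate 1 of synuclein at 7 weeks (0.0312) or without both libraries that stood apart (0.0444). Cplx1 stood at −1.52 ± 0.49, Napb at −1.02 ± 0.38, Syt1 at −0.91 ± 0.37 and Nsf at −0.86 ± 0.33, with edgeR adjusted p from 0.394 to 0.584. For 5 of the 8 members, Snap25, Stx1a, Vamp2, Cplx1 and Napb, the saline libraries at 12 weeks were all below those at 7 weeks, as for 7.83% of genes.

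After synuclein, edgeR again made 0 calls (0%), 1318 genes had an unadjusted p below 0.05, DESeq2 called 59 and limma-voom 0. Napb had the largest estimate there, −1.62 ± 0.38 (95% interval −2.42 to −0.82; edgeR adjusted p = 0.389; DESeq2 0.0361), followed by Cplx1 at −1.48 ± 0.49, Syt1 at −1.26 ± 0.38 and Snap25 at −0.98 ± 0.32. Syt1 and Napb, 2 of 8 members, were lower at 12 weeks in every library, as were 7.13% of genes.

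Whether fibrils changed these transcripts was asked at each time against saline. No member was called, and at 7 weeks every estimate lay within 0.32 of 0 on the log2 scale. There edgeR made 0 calls among the 17380 genes (0%), 285 genes had an unadjusted p below 0.05, and DESeq2 and limma-voom made 0 calls. Cplx1 had the largest estimate, −0.32 ± 0.48 (95% interval −1.32 to 0.69). The interval of Snap25, at −0.18 ± 0.31, ran from −0.84 to 0.48. Replicate 1 of synuclein was the highest library for both genes. Without it the estimates were −1.29 for Cplx1 and −0.71 for Snap25, and without replicate 3 they were 0.11 and 0.087. The groups overlapped for all 8 members, and 8.45% of genes had groups that did not.

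At 12 weeks Snap25 and Nsf had the highest estimates of the 8, 0.66 ± 0.32 (95% interval −0.01 to 1.33; edgeR adjusted p = 0.887) and 0.65 ± 0.33 (−0.05 to 1.35; 0.894). For Snap25 the lowest synuclein library (221.7 CPM) lay just below the highest saline library (221.9 CPM), and the means were 268.5 ± 45.4 and 170.1 ± 49.6 CPM (SD, n = 3). For Nsf the means were 159.2 ± 60.7 and 101.5 ± 25.7 CPM. Napb had the lowest estimate, −0.39 ± 0.38 (−1.18 to 0.41). The other 5 lay between −0.28 and 0.28. No gene was called by edgeR (0% of 17380), 968 had an unadjusted p below 0.05, and 12 were called by DESeq2 and 0 by limma-voom. All 8 members overlapped between the treatments, and 10.7% of genes did not.

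Over both times together the estimates for synuclein against saline ran from −0.30 ± 0.34 (Cplx1) to 0.33 ± 0.23 (Nsf), and edgeR made 0 calls (0%; 431 genes had an unadjusted p below 0.05, and DESeq2 called 3). The difference between the fibril effects at 12 and at 7 weeks, which is also the difference between the changes with time in the 2 treatments, was tested directly. It was 0.84 ± 0.45 for Snap25 (95% interval −0.10 to 1.78; edgeR adjusted p = 0.952), 0.64 ± 0.47 for Nsf and −0.60 ± 0.53 for Napb, and smaller for the others. EdgeR made 0 calls in it (0%; 780 genes had an unadjusted p below 0.05), as did DESeq2 and limma-voom. So neither the lower estimate of Snap25 after saline nor that of Napb after synuclein was shown to differ from the other treatment. These comparisons share libraries, and their values are given side by side only.

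**Figure D3:**
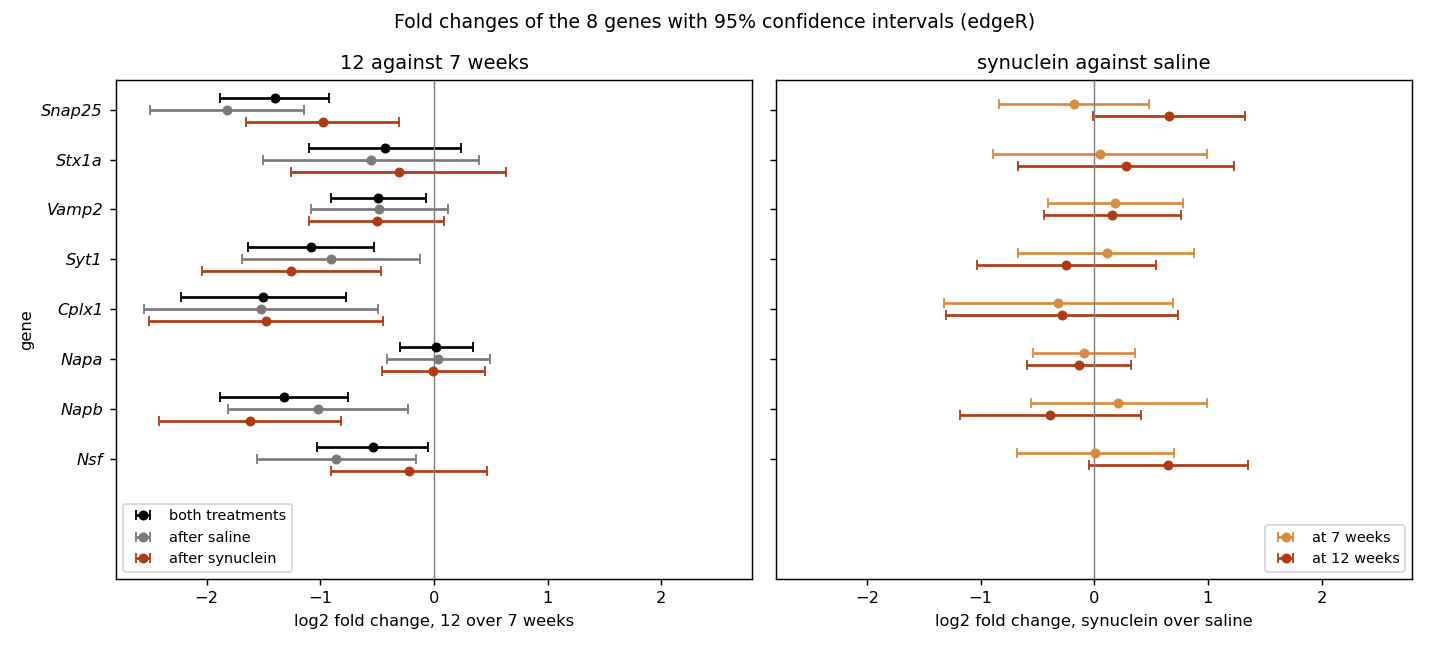
Log2 fold changes (points) with 95% confidence intervals (bars) of the 8 genes, for 12 against 7 weeks (left) and synuclein against saline (right), from one edgeR model of the 12 libraries. For 12 against 7 weeks the intervals of Snap25, Napb, Cplx1 and Syt1 lie below 0 over both treatments and within each, and every interval for synuclein against saline includes 0.

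The members differed in how closely their level correlated with the summed level of the neuronal genes. Over the 12 libraries the correlation of log2 CPM with the log2 sum of the 18 neuronal genes was 0.95 for Vamp2, 0.93 for Syt1, 0.89 for Snap25 and Cplx1, and 0.88 for Napb. It was 0.60 for Nsf, 0.42 for Stx1a and 0.30 for Napa. With the dopaminergic sum, Cplx1 had the highest correlation (0.97) and Stx1a the lowest (0.20). These are descriptions over libraries that share groups, scaling and cell mixture. Replicate 1 of synuclein at 7 weeks, with the highest neuronal sum (3940 CPM), was also the highest library for 6 of the 8 members, Stx1a and Nsf being the exceptions.

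**Figure D4:**
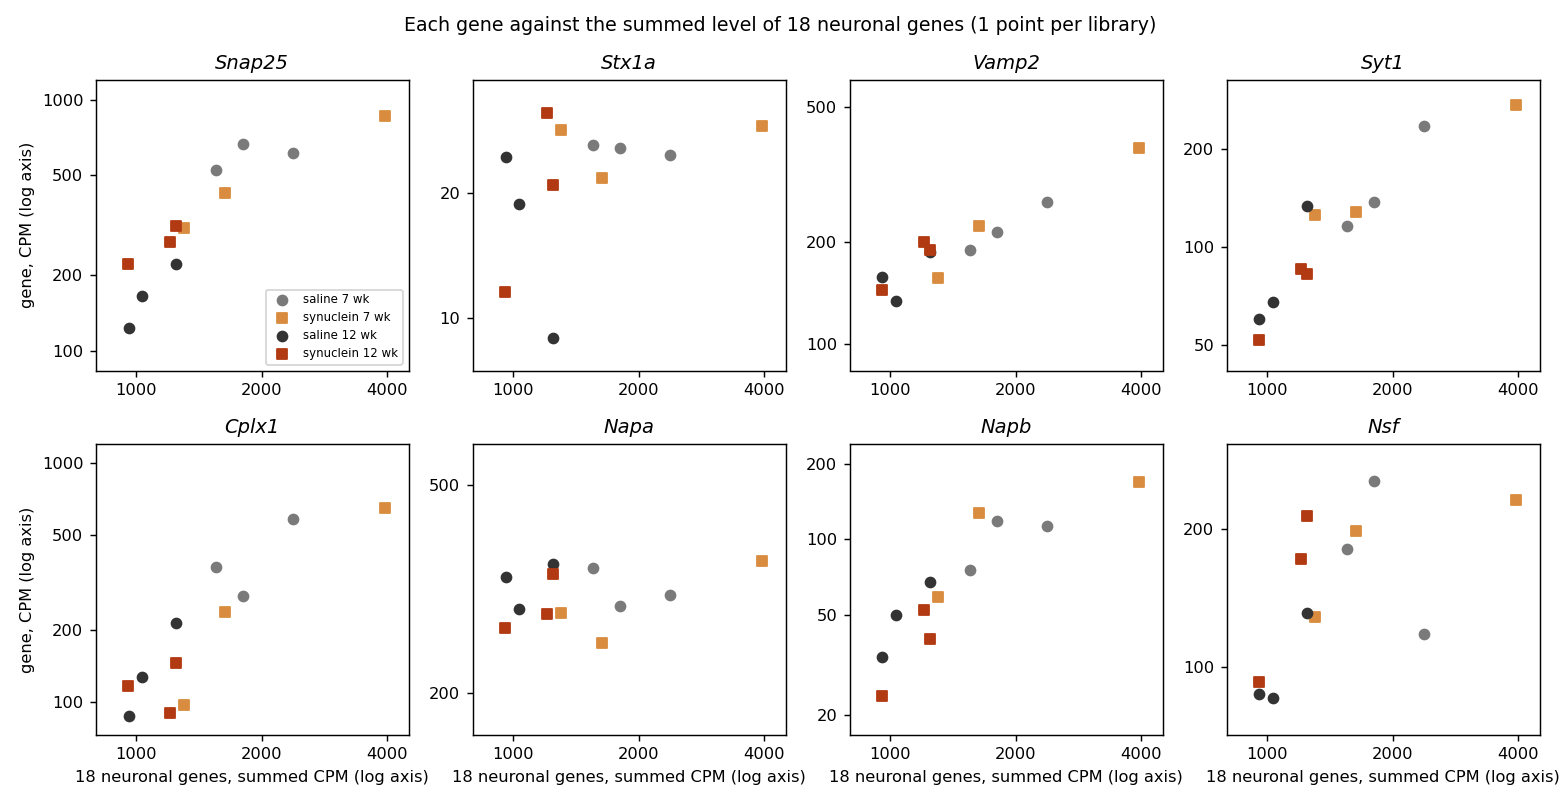
Level of each gene (TMM-scaled CPM) against the summed CPM of 18 neuronal genes in the same library, both on log axes, with 1 point per library (circles, saline; squares, synuclein; paler, 7 weeks). Vamp2 and Syt1 follow the neuronal sum closely (correlation 0.95 and 0.93), while Napa and Stx1a spread across it (0.30 and 0.42).

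The neuronal sum itself was lower at 12 weeks, by −0.83 on the log2 scale, with 17 of its 18 genes lower and 2 called by edgeR, Stmn2 (−1.04 ± 0.22, adjusted p = 0.0346) and Stmn3 (−1.39 ± 0.29, 0.036), both tubulin-binding stathmins. Of 15 dopaminergic genes tested 13 were lower and 2 were called, Th (−1.29 ± 0.27, edgeR adjusted p = 0.0376) and Slc18a2 (−1.45 ± 0.33, 0.0469). All 12 oligodendrocyte genes were higher, 6 of them called, and their sum was higher by 0.84. All 12 microglial genes were lower (median −0.82), as were all 10 endothelial genes (median −0.29), and all 6 ependymal genes were higher (median 2.54), none of these called. Their sums overlapped between the times, at 114.8 to 668.2 against 82.65 to 220.2 CPM for microglia and 7.174 to 43.43 against 8.501 to 470.0 CPM for ependymal genes. Taken by treatment, 6 of 12 microglial genes were lower after saline (median near 0) and 12 after synuclein (median −1.77). All 10 endothelial genes were lower after saline (median −0.60) and 5 of 10 after synuclein (median 0.01). When the libraries were scaled to the neuronal genes instead of by TMM, the median of all genes moved from −0.03 to 0.74, and no member was called lower. Snap25 then stood at −0.53 (edgeR adjusted p = 0.205), Cplx1 at −0.51 (0.238), Napb at −0.48 (0.275) and Syt1 at −0.22 (0.596), while Vamp2 (0.38), Stx1a (0.34) and Nsf (0.22) turned to higher and Napa stood at 0.79 (0.0946). Per 1000 CPM of neuronal genes, Snap25 was 218.5 to 367.1 CPM at 7 weeks and 128.3 to 250.5 CPM at 12 weeks, Napb 43.0 to 78.4 and 24.9 to 54.2, and Vamp2 95.6 to 136.4 and 129.3 to 165.5. The part of the cell mixture, all these cell types included, in the fall of Snap25, Napb and Cplx1 was not tested.

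Other genes of the fusion machinery were taken from 4 lists, and none of their 60 tested members was called for 12 against 7 weeks, beside 0.834% of all genes, a share under which few or no calls fall to a list of that size. Of 11 close relatives of the member SNAREs, 7 were lower, with a median log2 fold change of −0.17. The highest in CPM, which is not set to length, were Vamp3, a vesicle SNARE of many cell types (282.1 CPM; 0.01 ± 0.22, edgeR adjusted p = 0.999), and Snap47 (131.0 CPM; −0.56 ± 0.24, 0.429). Per length Vamp8 was the highest, at 213.8 FPKM against 143.0 for Vamp3 and 77.8 for Snap47. Its log2 fold change was 0.19 ± 0.18 (edgeR adjusted p = 0.855). Vamp7 was listed at 0 in all 12 libraries and was not tested. Of 16 other synaptotagmins, Doc2 proteins and complexins tested, 15 were lower, with a median of −0.65. The exception was also by far the most abundant, Syt11 (1047 CPM), a synaptotagmin that does not bind calcium, at 0.62 ± 0.19 (edgeR adjusted p = 0.155). Syt4 followed at 52.5 CPM and −0.66 ± 0.30 (adjusted p = 0.472).

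Of 15 Sec1/Munc18 proteins, priming factors and SNARE-binding proteins, 11 were lower, with a median of −0.31. Snapin, a Snap25-binding protein (182.3 CPM), stood at 0.46 ± 0.18 (edgeR adjusted p = 0.364). Of 18 SNAREs of the endoplasmic reticulum, Golgi and endosomes, which all cells need, 12 were lower with a median of −0.11, close to that of all genes. Vti1b (193.0 CPM) stood at −0.28 ± 0.16 and Gosr2 (180.0 CPM) at 0.18 ± 0.24 (edgeR adjusted p = 0.636 and 0.913).

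Among themselves, 5 members varied together over the 12 libraries: Snap25, Vamp2, Syt1, Cplx1 and Napb had pairwise correlations of log2 CPM from 0.81 to 0.91, the highest between Syt1 and Napb. With group means removed these were 0.68 to 0.86, so the likeness was also seen between libraries of one group. Nsf correlated with these 5 at 0.47 to 0.76 and, within groups, at 0.31 to 0.68. Stx1a did so at 0.14 to 0.43 and, within groups, at −0.33 to 0.08. Napa did so at 0.12 to 0.37 and, within groups, at 0.23 to 0.58. For Napa and Napb, which take the same place in the Nsf complex, the values were 0.12 and 0.23.

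The genes most like each member, by correlation of log2 CPM over the 12 libraries among 11269 genes with a mean of at least 10 CPM, differed in the same way. For Snap25 they were Tubb2a, a β-tubulin, Atp6v1g2, a subunit of the vacuolar proton pump, and Ywhah, a 14-3-3 protein (0.96 each). For Syt1 they were Slc18a2, the vesicular monoamine transporter (0.97), Bex2 (0.96) and 6330403K07Rik (0.95). Cplx1 was most like Fgf13, Mapk9 (0.96 each) and Th (0.95). Vamp2 was most like Uchl1 (0.95), Peg3os (0.94) and Map1b (0.93), and Napb most like Cdk14 (0.97), Ndn (0.94) and Fbxl16 (0.93). Uchl1 and Map1b are among the 18 neuronal genes, and Th and Slc18a2 among the dopaminergic ones. Napa was most like Mrpl54, a mitochondrial ribosomal protein, and Srm, spermidine synthase (0.85 each), Stx1a most like Psme1 and Galnt18 (0.91 each), and Nsf most like Sirt3 (0.94) and Map2k4 (0.90). As the maximum over so many genes with 12 libraries, these values carry no test.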

How the data were processed

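Cells positive for hKO1 were sorted into TRIzol LS, and RNA was amplified with the SMARTer Ultra-Low kit, per the labels' protocols. The authors used TopHat2 2.0.13, Bowtie2 2.2.3 and Cufflinks 2.2.1, per the submitters' processing notes, with the build not given in the sources used here. Estimated counts per gene and library were deposited by the authors. They are scaled: 98.9% to 99.2% of values in a library were whole multiples, within 0.02 fragments, of a step of 0.685 to 1.30, and dividing by that step gave the fragments. FPKM values were also deposited by the authors. A further 84 per-sample columns were not used.

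The deposited estimated counts were rounded and tested with edgeR 4.0.16 in R 4.3.3. Genes passing filterByExpr with default settings numbered 17380. After TMM scaling, the 12 libraries entered one quasi-likelihood model of the 4 group means (8 residual degrees of freedom; common biological coefficient of variation 46.6%). The median standard error of the log2 fold change of 12 against 7 weeks was 0.371. P-values were adjusted by Benjamini-Hochberg over all genes. Alternatives included DESeq2 1.42.0, voom and trend fits in limma 3.58.1, other scalings and filters, a replicate block, left-out libraries, and scaling to neuronal genes. Same-numbered libraries correlated at −0.01 to 0.26 after removing group means, and 10 of 12 libraries correlated best with their own number. As the labels name no pairing, the numbers entered the replicate block alone.

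Named were all 8 members and the 2 genes with the highest mean CPM of each list of other fusion genes, with Vamp8 added for its FPKM. Of the marker lists, fold changes of single genes were given for the called neuronal and dopaminergic genes only. Of the genes most like each member, up to 3 were named (log2 CPM, prior count 2). Of these genes 1, and of the 5 ratio pairs 1, are not reported here. The members and lists were chosen with earlier results of these data known. Gene positions are those of the deposited files, read as mm10, with starts moved by 1 to count from 1.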

Additional observations from a re-analysis of the deposited data

How the results depend on the processing

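The direction of Snap25, Syt1, Cplx1 and Napb for 12 against 7 weeks held under every alternative run, while the calls did not. Where a call or a count did not hold, the cause was not tested. With DESeq2, 12 against 7 weeks gave 449 genes over both treatments (145 with edgeR), with Syt1 called at −1.06, then 173 genes and 1 member (Snap25) after saline and 59 genes and 1 member (Napb) after synuclein. It gave 12 genes for synuclein against saline at 12 weeks and 3 over both times. With limma on log2(FPKM + 0.1), 12 against 7 weeks gave 1 gene and 0 members, with Snap25 at −1.34, Cplx1 at −1.31 and Napb at −1.28, and 2 genes after saline. Synuclein against saline then gave 2 genes at 12 weeks and 1 over both times, and the difference of these effects 1. With log2(FPKM + 1), 12 against 7 weeks gave 5 genes and 0 members, with Snap25 at −1.33, Cplx1 at −1.29 and Napb at −1.22, and 1 gene each after saline, for synuclein against saline at 12 weeks and for the difference of effects. The labels do not pair the samples by replicate number. After removing group means, same-numbered libraries correlated over 0.1 in 9 of 18 pairs, and 10 of 12 libraries correlated best with their own number. What the numbers stand for was not tested, and the main fit leaves them out. With the replicate block, 246 genes were called over both treatments, Syt1 among them at −1.01, and 34 genes and 1 member (Snap25) after saline. Scaled to the neuronal genes, 12 against 7 weeks gave 1289 genes and 0 members, with Snap25 at −0.53, Cplx1 at −0.51 and Napb at −0.48, while Vamp2 (0.38), Stx1a (0.34) and Nsf (0.22) reversed. It gave 55 genes after saline and 1 for the difference of effects. Without a filter on low counts Syt1 was called at −1.08, and 7 genes and 1 member after saline. Fitting only the groups compared gave 49 genes and 1 member after saline. Cplx1 missed the threshold with upper-quartile scaling (−1.48), the deposited scaling (−1.52), recovered fragments (−1.50) and limma-voom (−1.32). Leaving out both synuclein libraries at 12 weeks that stood apart, a choice made after seeing the data, leaves a lone library, which is assumed to vary like the other groups. It gave 0 genes and 0 members over both treatments, with Snap25 at −1.40, Cplx1 at −1.70, Napb at −1.11 and Napa at −0.018, and 14 genes and 1 member after saline. Napb for synuclein against saline at 12 weeks was then 0.056, and the log2 ratio of Snap25 to Snap23 differed by −0.99. With any 1 library left out, 12 against 7 weeks gave 24 to 214 genes and 1 to 3 members, with Cplx1 from −1.71 to −1.01, Napb from −1.46 to −1.13 and Napa from −0.027 to 0.10. The count was 24 to 38 genes, with Snap25 as the 1 member called, without replicate 1 or 3 of saline or replicate 1 of synuclein at 12 weeks, or without replicate 2 or 3 of saline or replicate 1 or 2 of synuclein at 7 weeks. Such omissions gave 0 to 9 genes and 0 to 1 members after saline, 0 to 2 genes after synuclein, and 0 to 1 for synuclein against saline at 7 weeks, at 12 weeks and over both times. At 7 weeks the synuclein estimates ran from −0.71 to 0.087 for Snap25 and from −1.29 to 0.11 for Cplx1, lowest without replicate 1 and highest without replicate 3 of synuclein at 7 weeks. The ratio of Cplx1 to Cplx2 ran from −0.61, without that replicate 3 (exact permutation p = 0.045), to −0.21. Omissions for ratios were added after seeing the data. The lowest counts, 26 and 40 fragments, were those of Stx1a.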
